A study of Danio rerio with 4 samples.

Results

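The genes described here are the homeobox, Sox and Pax patterning factors on a zebrafish expression array, taken as all genes whose symbol begins with one of 12 family names followed by a digit. The families are Sox, Pax, Dlx, Irx, Lhx, Nkx, Otx, Msx, Emx, Gsx, Pou and the sine oculis homeobox genes, written six1a to six9. The array held 119 such genes on 229 probes, out of 13366 genes that could be named. Of these, 116 genes (214 probes) were well above background on at least 2 of the 4 arrays and are described below. The other 3, the LIM-homeobox gene lhx3 and the Sox genes sox17 and sox6, were well above background on at most 1 array and have no value here. The values are normalized log2 signals of the brightest detected probe of each gene, which compare arrays for one probe and not one gene with another. Of the 116 genes, 44 had 1 detected probe and 72 had several, up to 6.

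Whole embryos were examined at 24 and 96 hours post fertilization (hpf), with 0 or 3.9 µM copper (Cu) in the treatment. This makes 4 groups of 1 array each, namely copper at 24 hpf, untreated control at 24 hpf, copper at 96 hpf and untreated control at 96 hpf. Neither a strain nor a genetic alteration is given for any group, and nothing says how many embryos were pooled or whether arrays came from separate spawnings. The labels' agent and the names of the scanner files give opposite treatments at both ages, and groups follow the labels, so an array is described as labelled copper or labelled control. Were the file names correct instead, each copper difference below would turn its sign, whereas the differences between ages would not.

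Homeobox, Sox and Pax proteins bind DNA and set regional and cell identity in the embryo. Homeodomain factors of the Dlx, Emx, Otx, sine oculis, Nkx, Irx, Lhx, Msx, Gsx and Pou classes divide the nervous system, head and organ primordia into territories, Pax factors carry a paired domain, and Sox factors carry an HMG box. Many are first used in progenitors, and some are used again in differentiated neurons, sensory cells or gland cells.

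Between 33505 and 36442 probes were well above background per array (76.9% to 83.6%). The median processed signal was 366.4 on the array labelled copper and 162.2 on the array labelled control at 24 hpf, and 190.2 and 194.4 on those at 96 hpf. Metallothionein mt2, which metals induce, was 0.55 higher (log2) in the array labelled copper at 96 hpf on 3 of 3 probes. At 24 hpf it was 0.029 higher, a sign that turned to -0.22 under 75th-percentile scaling, so it does not settle the labels at that age. Nor does a difference of 0.55 in 1 gene, with 1 array per group, settle them at 96 hpf. Markers of all 12 tissues checked, from neuron to exocrine pancreas, were detected in these whole embryos.

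The comparison of ages asks which patterning factors are used in the first day and which at 96 hpf. Among the genes that rose were the cone photoreceptor factor six7, the retinal ganglion cell factor pou4f2 and the forebrain neuron gene lhx6a. Among those that fell were the SoxB genes sox19a, sox3 and sox21a, the midbrain-hindbrain gene pax5 and the ventral neural tube gene nkx2.9, while other neural genes, pax6a (0.044) and sox1a (0.35) among them, did not pass. Of 116 detected members 20 rose, or 17.2%, against 17.3% of all 12332 detected genes, and 30 fell, or 25.9%, against 15.1% of all genes, so that 50 members (43.1%) passed in either direction, against 32.4% of all genes. The median member differed by -0.37 (log2, 96 minus 24 hpf) and the median gene by -0.10. The share that rose was thus at the background and the share that fell was above it; no test of that difference was made. These counts include pou4f3, nkx6.2, nkx6.3 and nkx1.2la, which were dim on both arrays of an age and passed the filter through the other age. Among the 103 members well above background on all 4 arrays, 17 rose and 26 fell, against 16.8% and 15.4% of all such genes. Under 75th-percentile scaling the median of all genes was -0.00081, and 19 members rose and 23 fell, against 16.8% and 11.5% of all genes. The calls are from limma with Benjamini-Hochberg adjustment over 36026 probes at an adjusted p under 0.05. Each age enters this fit with 2 arrays of unlike treatment, so its error, on 1 residual degree of freedom per probe, comes from how far the copper change differs with age and not from replicates.

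**Figure D1:**
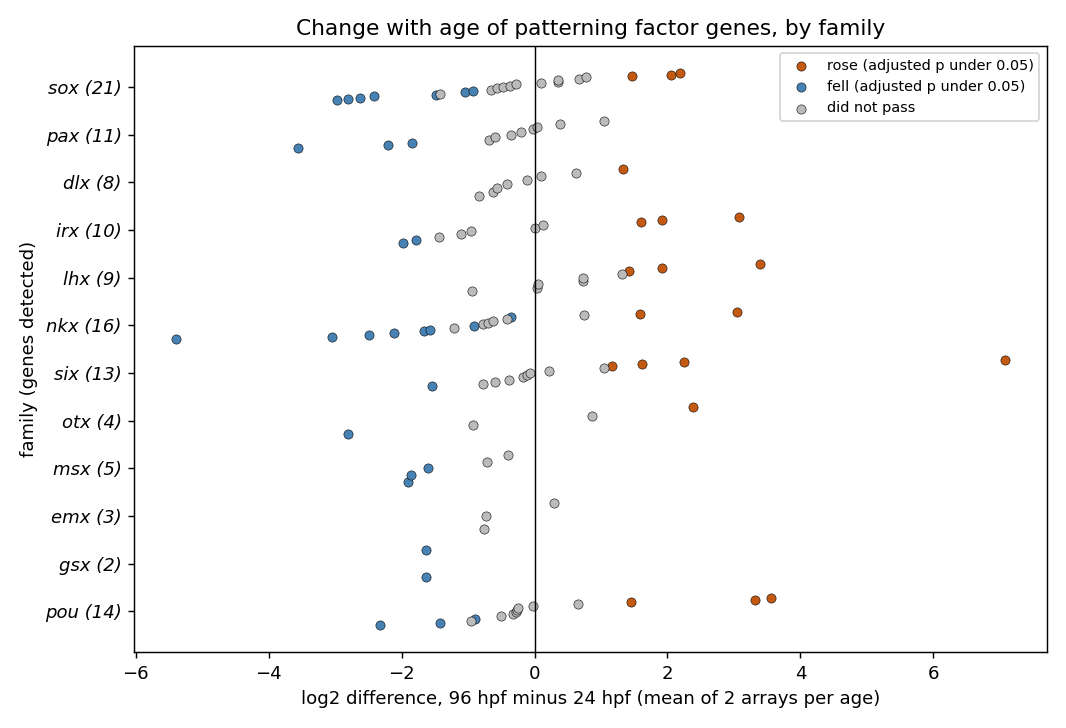
Each point is a detected gene, placed by its log2 difference of 96 hpf minus 24 hpf (mean of 2 arrays per age) in its family's row; genes dim on both arrays of an age stand at their bound. Orange points rose, blue points fell and grey points did not pass the limma adjusted p. The points run from nkx2.9 at -5.40, which was dim on 1 array at 96 hpf, to six7 at 7.08, and pax, msx, emx and gsx have no orange point.

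The sine oculis family, named after a fly eye gene, held the largest rise. The cone photoreceptor factor six7 had a signal of 13.01 and 13.04 on the arrays labelled copper and labelled control at 96 hpf, against 5.37 and 6.52 at 24 hpf. All 96 hpf values lay above all 24 hpf values, and six7 rose by 7.08 (log2, SE 0.46, adjusted p = 5.07e-06), or by 5.88 under normexp background correction and 4.15 with the mean of detected probes. A further probe of six7 rose and was dim at 24 hpf (bound 2.38), while another differed by 1.04 without passing the test, so the size of the rise was not shared by all probes. The forebrain and eye genes six3a (1.17) and six6b (1.62) and the gene six9 (2.25) also rose, and six4b fell by 1.55. Only 1 of 2 probes of six6b passed, and six9 was not well above background in the 24 hpf array labelled control. The remaining 8 genes of the family did not pass, among them six1b (-0.072), a gene of placodes and muscle, and the forebrain gene six3b (-0.17).

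In the Pou, Lhx and Otx families 7 genes rose, and others, such as lhx2b (0.73), lhx5 (0.73) and lhx1a (0.040), did not pass. The retinal ganglion cell factor pou4f2 had 8.66 and 9.22 at 96 hpf, against 5.66 and 5.10 at 24 hpf, a rise of 3.56 (SE 0.51, adjusted p = 0.000686) on 2 of 2 probes that was 2.27 under normexp. The hair cell factor pou4f3 was dim (not well above background) on both 24 hpf arrays and at least 9.95-fold higher at 96 hpf, with an adjusted p of 8.80e-05 that rests on those dim values. Its relative pou4f4 rose by 1.45, with 1 of 2 probes passing. The LIM-homeobox genes lhx6a and lhx8a, which act in forebrain neurons of the mouse, rose by 3.39 and 1.92. For lhx6a the 4 signals were 10.87 and 10.90 at 96 hpf, against 7.20 and 7.79 at 24 hpf, with no overlap. Their relative lhx9 rose by 1.42, with 2 of 3 probes passing. The photoreceptor and pineal gene otx5 rose by 2.38 on 2 of 2 probes (12.02 and 12.39 at 96 hpf, against 9.56 and 10.09 at 24 hpf).

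Other Otx and Pou genes fell. The forebrain and midbrain gene otx2a fell by 2.81 (SE 0.45, adjusted p = 0.00125), with 7.53 and 8.11 at 96 hpf, against 10.71 and 10.55 at 24 hpf. Its duplicate otx2b differed by 0.87 and did not pass (adjusted p = 0.0745). The early embryo factor pou5f3, related to the mammalian pluripotency factor Oct4, fell by 2.33 (6.61 and 6.72 at 96 hpf, against 8.67 and 9.32 at 24 hpf). The neural genes pou3f3a and pou3f3b fell by 1.43 and 0.89, while their relative pou3f1 (-0.28) did not pass. Only 1 of 2 probes of pou3f3b passed. No Lhx gene fell.

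Among 21 Sox genes 3 rose, 7 fell and 11 did not pass. The SoxB1 factors, which keep neural cells in the progenitor state, were among those that fell. The signal of sox19a was 12.07 and 12.54 at 96 hpf, against 14.77 and 15.09 at 24 hpf, so that it fell by 2.63 (SE 0.28, adjusted p = 0.000112). For sox3 the signals were 11.24 and 11.72 at 96 hpf, against 14.24 and 14.31 at 24 hpf. Neither gene's 96 hpf values reached its 24 hpf values, and sox3 fell by 2.80 on 2 of 2 probes. In the same group sox19b fell by 2.41 on 3 of 3 probes and sox2 by 0.93, whereas sox1a (0.35) and sox1b (-0.47) did not pass. The related SoxB2 genes sox21a and sox21b fell by 2.97 and 1.48, while the third SoxB2 gene, sox14, rose by 2.19. The SoxC genes split, with sox4a and sox4b higher by 1.46 and 2.05 and sox11b lower by 1.05. Only 1 of 3 probes of sox4a and 1 of 2 of sox4b passed. The neural crest factor sox10 (-0.37) and the cartilage factors sox9a (-0.66) and sox9b (-0.57) did not pass.

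No Pax gene rose and 3 of 11 fell. Signals of pax5, a midbrain-hindbrain boundary gene, were 4.90 and 5.52 at 96 hpf, against 8.54 and 9.00 at 24 hpf, so that it fell by 3.56 (SE 0.48, adjusted p = 0.000497) on 1 probe, a difference that was -2.30 under normexp. The dorsal neural tube and neural crest gene pax3a fell by 2.21 on 1 probe, which was not well above background in the 96 hpf array labelled copper. The gene pax7b, of muscle progenitors and pigment cells, fell by 1.84 with an adjusted p of 0.044, which did not pass under 75th-percentile scaling (-1.48) or with the mean of detected probes (-1.91), and its difference was -0.94 under normexp. The eye factor pax6a had 13.10 and 13.48 at 96 hpf, against 12.96 and 13.53 at 24 hpf, and its 3 brightest probes differed by 0.067 at most. However, the dimmest of its 6 probes fell by 1.45, and the boundary and ear gene pax2a likewise had 3 of 5 probes that fell while the brightest differed by -0.20.

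In the Nkx family 8 of 16 genes fell, against 15.1% of all genes. That count includes nkx6.2, nkx6.3 and nkx1.2la, which passed the filter only through the 24 hpf arrays. The ventral neural tube gene nkx2.9 had 3.36 (not well above background) and 4.27 at 96 hpf, against 9.09 and 9.34 at 24 hpf, so that it fell by 5.40 (SE 0.50, adjusted p = 5.46e-05). That size rests on a dim value on 1 of the 2 arrays at 96 hpf, and it was -3.10 under normexp. The heart progenitor genes nkx2.7 and nkx2.5 fell by 3.05 and 1.58, and nkx2.5 did not pass under 75th-percentile scaling (-1.37). The ventral spinal cord gene nkx2.2b fell by 2.49, whereas its duplicate nkx2.2a (-0.70) did not pass. The genes nkx6.2, nkx6.3 and nkx1.2la were dim on both 96 hpf arrays, being at least 4.32-fold, 1.87-fold and 1.29-fold lower there, and their adjusted p-values rest on those dim values. The gene nkx2.4b fell by 1.67. Only nkx3.3 (3.04, on 2 of 2 probes, and 2.29 under normexp) and nkx1.2lb (1.59) rose.

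Of 10 Irx genes 3 rose and 2 fell. The rise of irx4a, whose mammalian counterpart acts in the heart ventricle, was 3.08 (SE 0.42, adjusted p = 0.000522), with 11.11 and 11.48 at 96 hpf, against 7.83 and 8.60 at 24 hpf. Its neighbour irx2a rose by 1.60. The gene irx6a, dim on 1 of the 2 arrays at 24 hpf (labelled control), rose by 1.92, or by 0.85 under normexp. The falls were irx1b (-1.98) and irx5b (-1.79), each on 2 of 2 probes, while irx1a (0.0075) and irx5a (0.13) did not pass. Of 5 Msx genes, which act in neural crest, neural tube and fins, msx1a (-1.90), msx1b (-1.86) and msx3 (-1.60) fell. Both Gsx genes, which pattern telencephalon and spinal cord, fell by 1.64, and for gsx1 the call was lost under 75th-percentile scaling (-1.33) and the value was -0.98 under normexp. In the Dlx family, genes of forebrain and pharyngeal arches, only dlx4a rose (1.33), and dlx2a (-0.63) and dlx3b (-0.57) did not pass. No Emx gene passed, emx2 differing by 0.30.

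**Figure D2:**
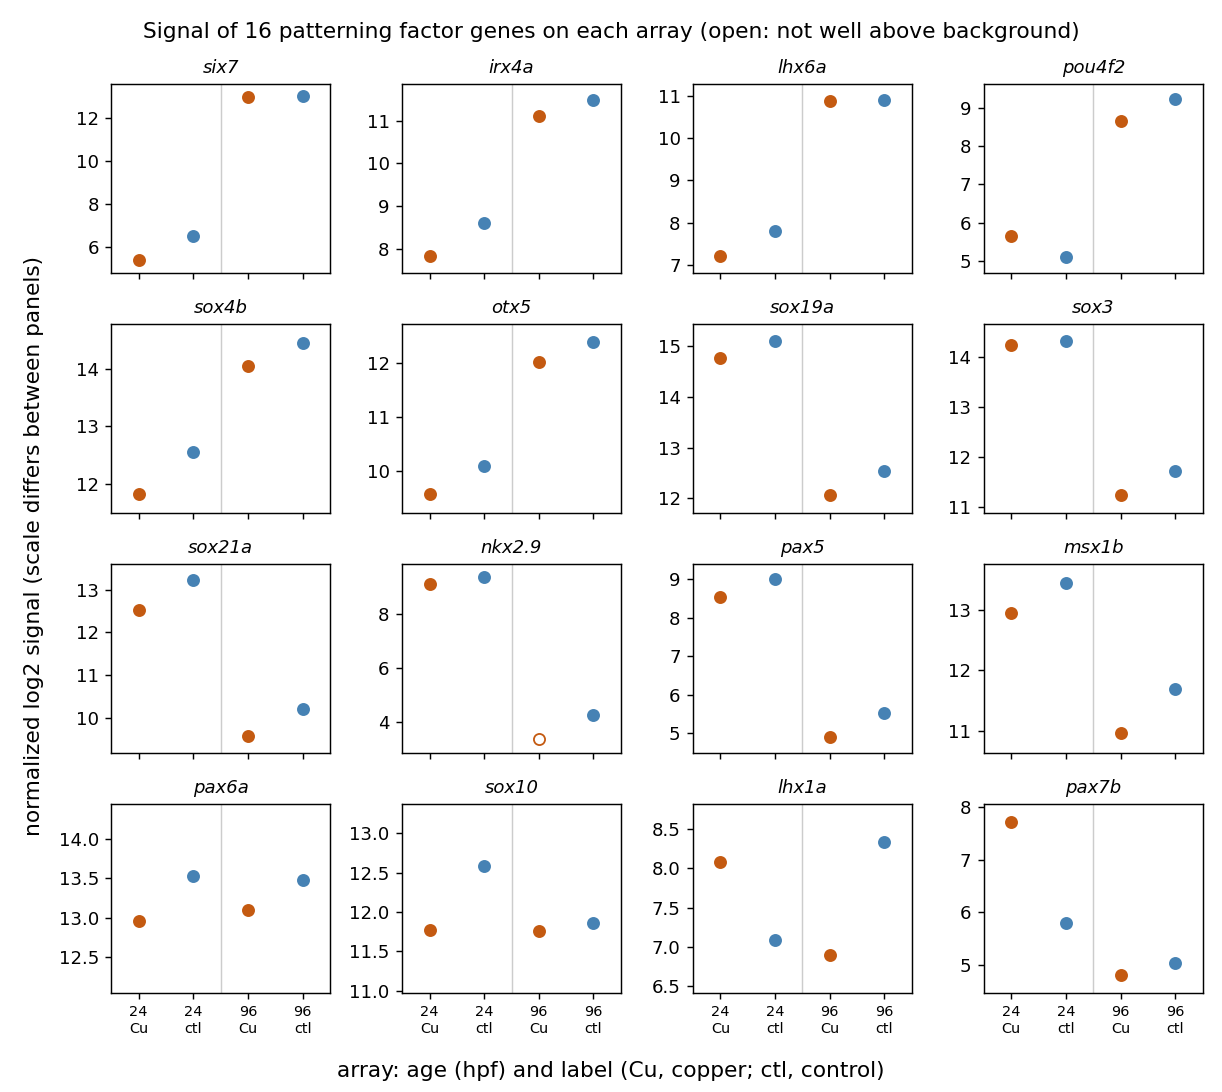
Each panel gives the normalized log2 signal of a gene on the 4 arrays, from left to right 24 hpf labelled copper, 24 hpf labelled control, 96 hpf labelled copper and 96 hpf labelled control; open points were not well above background, and the vertical scale differs between panels. The panels were chosen after the values were seen. Signals of six7 step up from 6.52 or less to 13.01 or more between the ages, those of sox19a step down to 12.54 or less, those of pax6a stay between 12.96 and 13.53, and those of lhx1a cross over between the ages.

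Of the 50 called members, 43 were called the same way on every detected probe, which holds of itself for genes with 1 detected probe. The others, lhx9, pou3f3b, pou4f4, six6b, six7, sox4a and sox4b, had probes that did not pass. No called member had probes called in opposite directions. The zebrafish genome keeps many factors as a pair of duplicates, named a and b. Of 30 such pairs with both copies detected, 5 passed in the same direction (msx1a and msx1b, pou3f3a and pou3f3b, sox19a and sox19b, sox21a and sox21b, sox4a and sox4b). In 12 pairs 1 copy passed, in 12 pairs neither did, and in 1 pair the copies went opposite ways. That pair was nkx1.2la, whose fall rests on values not well above background at 96 hpf, and nkx1.2lb, which rose. One copy passing and the other not does not show that copies differ, and the differences between copies were not tested.

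The comparison of copper at 96 hpf asks how patterning factors differed between the arrays of the later age. Nearly all were slightly lower in the array labelled copper. Of 113 members measured on at least one of these arrays, 104 lay below 0 (92%), 7 above and 2 at a bound of 0, whereas 55.4% of 12138 genes lay below 0. The median member differed by -0.34 (log2, labelled copper minus labelled control), against -0.048 for all genes, and the middle 50% of the 106 members measured on both arrays lay between -0.51 and -0.19. Over probes rather than genes, 178 of 194 member probes (91.8%) were below 0, against 59.4% of 22033 probes of all named genes. Since each group is 1 array, these values compare single arrays, without a check by replicates and without a p-value. In whole embryos, fewer cells of a type and less RNA per cell cannot be told apart.

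**Figure D3:**
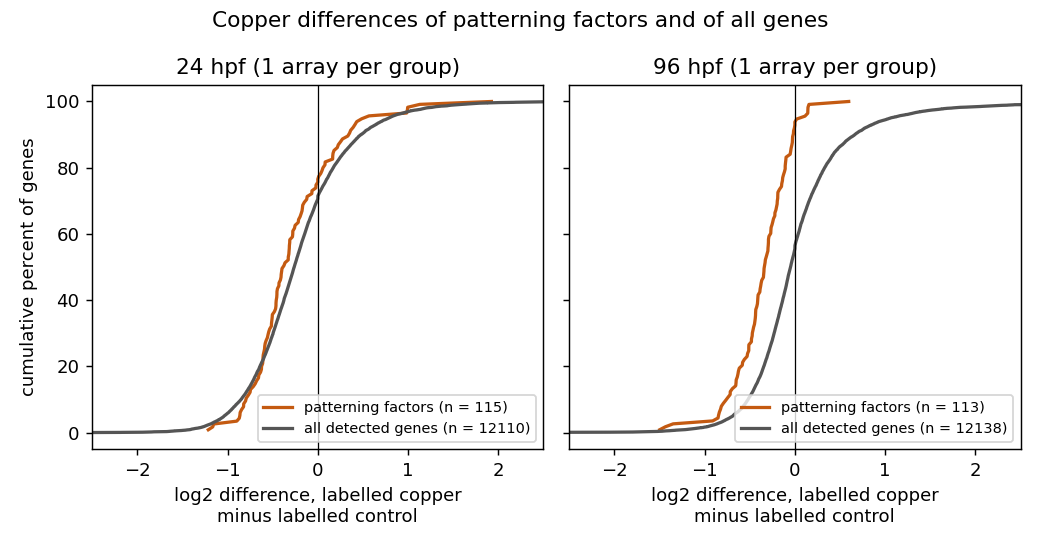
Curves give the cumulative percent of genes up to each log2 difference, labelled copper minus labelled control, at 24 hpf (left) and 96 hpf (right), for patterning factors (orange) and all detected genes (grey), with genes dim on one array at their bound. At 96 hpf the orange curve crosses 0 at 92% or above, against 55.4% or above for all genes; at 24 hpf the curves lie closer, at 74.8% and 70.5% below 0.

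The lower values ran through all 12 families. At 96 hpf, by the brightest probe, every measured gene was below 0 in the Pou (14 of 14), Irx (10 of 10), Dlx (8 of 8), Msx (5 of 5), Otx (4 of 4), Emx (3 of 3) and Gsx (2 of 2) families. Below 0 were also 18 of 21 Sox, 12 of 13 Nkx, 11 of 13 sine oculis, 9 of 11 Pax and 8 of 9 Lhx genes. Counted as below 0 were pou2f3 and six7, each with 2 of 3 probes higher, and pou1f1, at a bound of -0.016. So were pou3f2b, pax2b, six4a, sox4b and sox19b, each with 1 probe higher. Family medians were lowest for Msx (-0.65), Nkx (-0.53) and Otx (-0.48), and closest to 0 for Pou (-0.16) and sine oculis (-0.17). The 12 medians thus share a sign, and families differ in size by less than 0.5 on the log2 scale.

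Size by the brightest probe, in contrast to direction, was small. At least 2-fold lower were 3 of 113 members (2.65%), against 1.67% of all genes, and at least 2-fold higher were 0 of 113, against 5.51% of all genes. In either direction this makes 3 members, against 7.18% of all genes. These counts leave out further probes of a gene, and with the mean of detected probes 6 members were at least 2-fold lower. The share of all genes past 2-fold was not counted with that mean, so this number has no background to be read against. Before any bound, further probes past 2-fold lower were those of pax2a (-1.27 and -1.03 among them, brightest -0.34), sox11a (-1.29), sox11b (-1.26), otx2b (-1.21) and six6b (-1.15). The kidney and spinal interneuron factor lhx1a had a signal of 6.90 labelled copper and 8.34 labelled control at 96 hpf, a 2.70-fold lower value, and its other probe, dim in the array labelled copper, was at least 1.91-fold lower there. The islet cell factor pax4 had 5.51 labelled copper and 6.86 labelled control (2.55-fold lower, on 1 probe), a difference of -1.35 that was -0.68 under normexp background correction. The gene irx4b had a dim value of 1.93 labelled copper and 6.06 labelled control, at least 2.82-fold lower. Its bound of -1.50 was -0.73 under normexp. Just short of 2-fold lay irx6a (1.88-fold lower).

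On their brightest probes, well-known regulators were lower by smaller amounts at 96 hpf. The neural genes sox11b (-0.79), sox3 (-0.48) and sox2 (-0.24), the eye and forebrain genes otx2b (-0.66), lhx2b (-0.81), pax6b (-0.62) and pax6a (-0.39), and the fin and crest gene msx1b (-0.72) were all below 0. Each of the 6 probes of pax6a was lower, by 0.39 to 0.74, and so was each of the 4 probes of otx2b, 1 of them by 1.21. The boundary and ear gene pax2a was lower on 5 of 5 probes, by 0.34 on the brightest and by more than 1 on others. The jaw joint gene nkx3-2 differed by -0.82 and the pharyngeal gene nkx2.3 by -0.85. Above 0 were sox9b (0.16), the pharyngeal pouch and sclerotome gene pax9 (0.15), the eye genes six6a (0.14) and six3a (0.11), lhx8a (0.14) and pax7a (0.019). The endoderm gene sox32, well above background only in the array labelled copper, had a bound of 0.60.

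**Figure D4:**
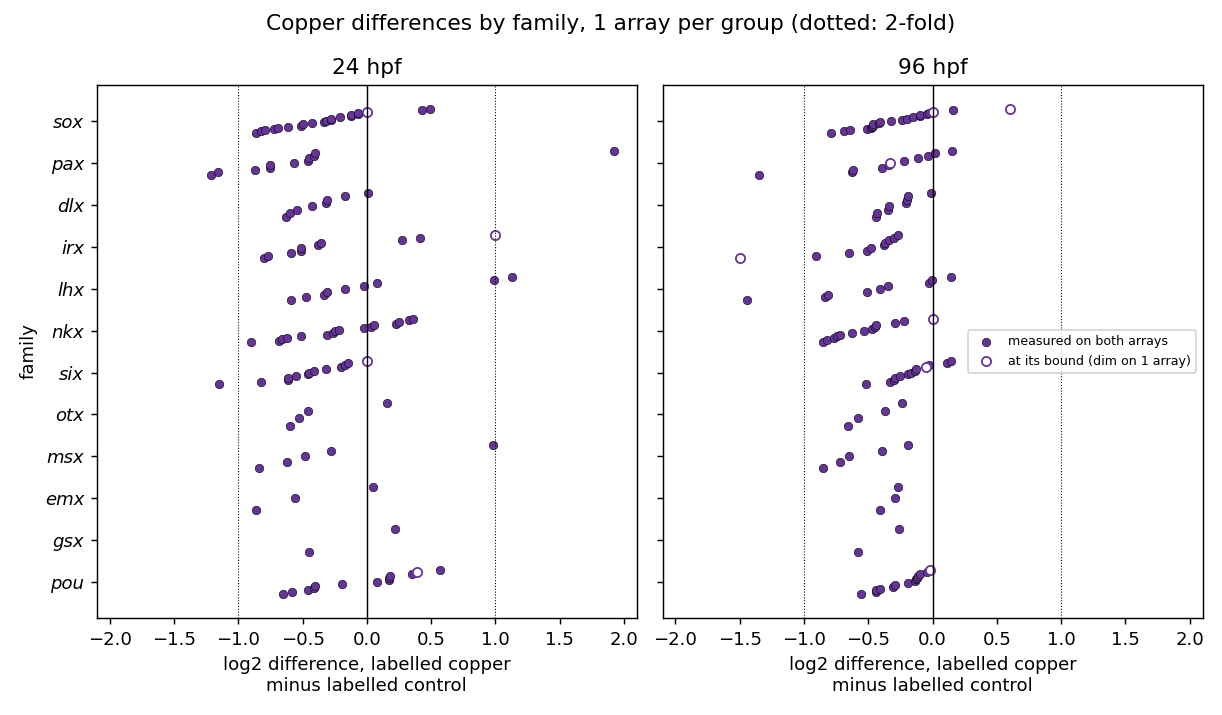
Each point is a gene, placed by its log2 difference, labelled copper minus labelled control, at 24 hpf (left) and 96 hpf (right) in its family's row; open points are bounds for genes dim on one array, and dotted lines mark 2-fold. At 96 hpf 104 of 113 points lie left of 0 and none lies past 2-fold on the right, while at 24 hpf pax7b (1.92) and lhx4 (1.13) lie past 2-fold on the right.

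Members lay below 0 at 96 hpf whichever way they had gone with age. Members that had risen with age had a median copper difference of -0.36 at 96 hpf (18 of 20 below 0), whereas all genes that had risen had a median of 0.35 (23.3% of 2136 below 0). Members that had fallen had a median of -0.46 (26 of 27 below 0), and all genes that had fallen -0.38 (86.7% of 1754). Members that had not passed had a median of -0.29 (60 of 66 below 0), against -0.053 for all such genes (57.1% of 8248). The age and copper comparisons share the 96 hpf arrays, so these are values side by side and not independent results. Markers of some other tissues moved much further between the same arrays, with medians of 5.25 for exocrine pancreas (3 of 3 genes at least 2-fold higher), 3.14 for liver (2 of 2) and 1.48 for photoreceptors (3 of 3), and of -3.85 for hatching gland (3 of 4 at least 2-fold lower) and -2.07 for red blood cells (2 of 3). Medians were -0.73 for notochord, 0.28 for lens, -0.24 for skin, -0.10 for skeletal muscle, -0.10 for heart, 0.041 for neurons and 0.039 for glia. The part of tissue makeup or stage in the differences of the patterning factors was not tested.

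Genes that work with these factors were also examined, as 14 lists of 149 entries of which 132 were detected. Retina and eye field regulators outside the 12 families had the lowest median at 96 hpf, -0.71 over 16 genes, with the ganglion cell gene atoh7 2.13-fold lower. In this list the photoreceptor regulators crx (-0.70) and nr2e3 (-0.73) were below 0. The gene neurod1 differed by -0.043, and rx1 (0.15) and tbx2b (0.091) were above 0. Photoreceptor markers were higher, as above. Lists of the spinal cord (median -0.52 over 15 genes), neural crest (-0.49 over 9), cartilage and bone (-0.42 over 7) and midbrain-hindbrain boundary (-0.40 over 7) were also below the median of all genes. The eya and dach genes, whose products act with sine oculis homeobox proteins, had a median of -0.056 over 8 genes, and pancreas and endoderm regulators 0.017 over 17. With age, 5 retina genes rose and 2 fell, among them crx (6.47) and vsx1 (3.59), which both rose. None of the 8 eya and dach genes passed, and 4 of 8 boundary genes fell, with 0 that rose. Over all genes 17.3% rose and 15.1% fell, and lists of this size allow no reading against those shares.

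At 24 hpf the patterning factors were close to the rest of the genes. Of 115 measured members 86 lay below 0 (74.8%), against 70.5% of 12110 genes, and the medians were -0.38 and -0.26. With the mean of detected probes the medians were -0.15 and -0.087. Over probes rather than genes, 123 of 205 member probes (60%) were below 0, with a median of -0.17, against 55.1% of 22326 probes and a median of -0.083. At least 2-fold higher were 2 of 115 members (1.74%), against 3.09% of all genes, and at least 2-fold lower were 3 (2.61%), against 5.86%, together 5 members against 8.95% of all genes. In the Pou family the median was 0.082, and in the other families it lay between -0.57 (Pax) and -0.12 (Gsx).

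The muscle progenitor and pigment cell gene pax7b had a signal of 7.72 labelled copper and 5.79 labelled control at 24 hpf, a 3.79-fold higher value on 2 of 2 probes, with a log2 difference of 1.92 that was 0.97 under normexp. At 96 hpf it had 4.81 labelled copper and 5.03 labelled control. Its duplicate pax7a was 1.36-fold lower at 24 hpf, and its further probes differed by -1.09 and -1.14 (log2). The motor neuron and pituitary factor lhx4 had 6.50 labelled copper and 5.37 labelled control, 2.19-fold higher on 2 of 2 probes, and its difference of 1.13 was 0.54 under normexp. Just outside the threshold lay lhx1a (0.99), irx6a at its bound (1.00, 1.99-fold, and 0.30 under normexp) and msx3 (0.98).

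Lower at 24 hpf by 2-fold or more were the eye and pancreas gene pax6b (10.37 labelled copper and 11.59 labelled control, 2.32-fold, 2 of 2 probes), the sclerotome gene pax1a (7.56 and 8.72, 2.24-fold, 1 probe) and six7 (5.37 and 6.52, 2.22-fold). The value of six7 is not shared by its probes, since another was 1.67-fold higher and the mean of its detected probes differed by -0.21. In the authors' deposited table, which gives coordinates on Zv9, the probe of pax6b is at chromosome 7, positions 16662335 to 16662394, and the probe of pax7b at chromosome 23, positions 21225862 to 21225921. In the authors' deposited table the probes of lhx1a and irx4b, which were lower at 96 hpf, are at chromosome 15, positions 27053029 to 27053088, and chromosome 19, positions 28747387 to 28747446. The annotation of exons or UTRs at these probes was not used here. The table listed 24 member probes (19 genes) at 24 hpf and 12 (9 genes) at 96 hpf, and the sign of each of these values in the authors' deposited table was opposite to the sign by the labels.

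Probes of one gene often gave different copper values at 24 hpf and seldom did at 96 hpf. Of 64 members with several probes measured on every array, 19 (29.7%) had probes 2-fold or more apart at 24 hpf and 0 at 96 hpf, against 27.7% and 2.43% of 6289 such genes in all. Probes dim on an array, such as the other probe of lhx1a, are not in these counts. Within members, the copper difference of the dimmest probe minus that of the brightest had a median of 0.52 at 24 hpf and of -0.049 at 96 hpf, against 0.51 and -0.091 over all genes, so that members were like the rest of the arrays in this. The brightest probe of the SoxC gene sox4a differed by -0.12 at 24 hpf and its others by 1.87 and 1.98. In the neural gene pou3f2b the brightest probe differed by 0.17 and the other by 2.39. For sox10 the values were -0.82 and 0.93. A direction at 24 hpf for such genes therefore holds for a probe and not for the gene.

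**Figure D5:**
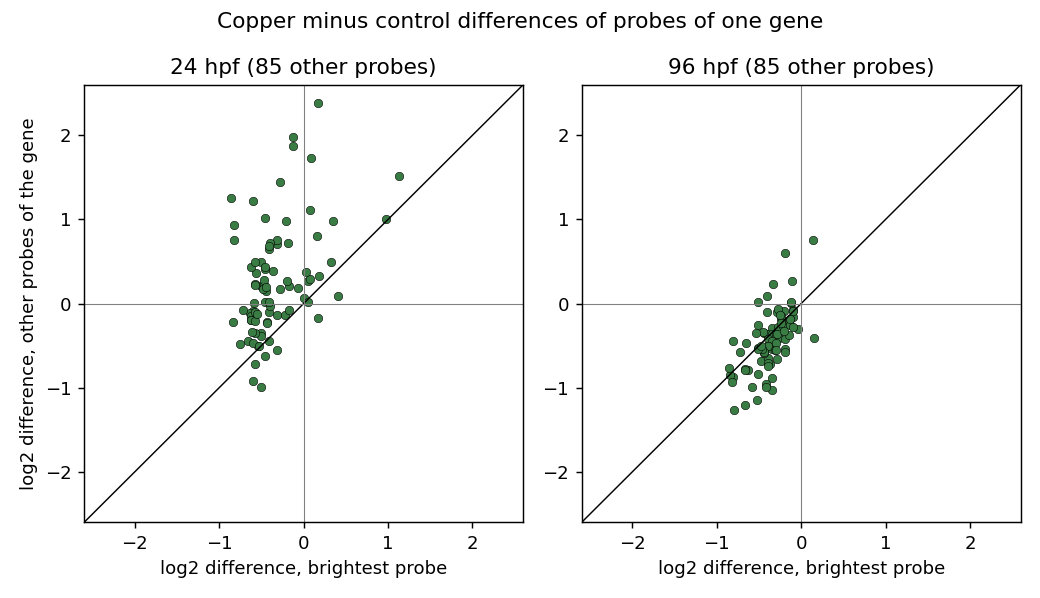
Each point sets the copper difference (log2, labelled copper minus labelled control) of a further probe of a gene (vertical) against that of its brightest probe (horizontal), for 85 further probes measured on all arrays, at 24 hpf (left) and 96 hpf (right); the line marks equal values. At 24 hpf many points lie above the line, by up to the values of pou3f2b (0.17 and 2.39), whereas at 96 hpf they lie closer to it.

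No patterning factor passed the test of a like copper difference at both ages. The limma model called 0 of 116 members, as it called 0 of all 12332 genes (0%), at a Benjamini-Hochberg adjusted p under 0.05, and the smallest adjusted p among members was 0.9999. At an unadjusted p under 0.05 were 3 members (2.59%), irx4b, pax6b and sox11b, against 1.52% of all genes. By their brightest probes all were lower in the arrays labelled copper. The value of irx4b rests on a dim signal in the 96 hpf array labelled copper. The other probe of sox11b differed by 1.45 at 24 hpf and by -1.26 at 96 hpf, so its direction at 24 hpf was not shared by its probes. Of 112 members measured at both ages, 77 were below 0 at both, 25 were above 0 at 24 hpf and below 0 at 96 hpf, 7 were the reverse, and 0 were above 0 at both. Over all genes 70.5% lay below 0 at 24 hpf and 55.4% at 96 hpf. The joint counts were not made over all genes, so those of the members have no background to be read against.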

How the data were processed

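RNA of whole embryos was measured on 4 one-colour Agilent arrays, 1 per group, on 1 slide and in 1 scan per the file headers. Per the file headers, the scanner files carry intensity values from which Feature Extraction (11.0.1.1) had subtracted background, with no scaling between arrays. The labels' design text gives quantile normalization in GeneSpring GX (11.5.1) and a fold change filter as the authors' further steps. In the authors' deposited table stand log2 fold changes, a linear ratio (absolute fold), normalized log2 values, raw intensity values and Zv9 probe positions.

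Control spots and flagged outliers were left out (34 of 43603 probes), and the log2 intensity of each probe was averaged. Arrays were quantile-normalized, which gives them the same distribution over probes, so a shift of a whole array cannot be seen. By the brightest probe, 70.5% of genes still lay below 0 for copper at 24 hpf. Folds of dim probes are uncertain, and those of several genes above were smaller under normexp. Kept were 36026 probes well above background on at least 2 arrays. RefSeq accessions were named, and neighbours taken, from a GRCz12tu gene table. That table has 135 symbols of these families, of which 16, irx3a and pax8 among them, matched no probe and were not analysed here. A gene is given by its brightest detected probe. If that probe was dim on one array of a pair, or at one age, the dim side was raised to the lowest value well above background there and the result written as "at least".

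Age and copper were fitted with limma 3.58.1 (R 4.3.3, lmFit, eBayes with trend, Benjamini-Hochberg over all probes). The step was run on simulated arrays with added age changes, independent noise and no copper change. That run cannot show whether the error of the real calls is right, since there the error comes from the copper change. Nothing says that arrays are separate cultures, and the number of arrays limits the precision. The error behind each p is how far the copper change differs with age. It holds no spread of replicates and may be technical in part. Copper at one age has no test, and differences past 2-fold were counted. Python 3.11.15 with pandas 2.3.3, numpy 2.4.6 and matplotlib 3.10.9 did the rest. Alternatives were 75th-percentile scaling, normexp (offset 50), other filters, a 4-fold threshold, the mean of probes, other models, leaving out arrays, and the file names' treatment.

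The members and gene lists were chosen with earlier results of these data known. The naming rule took 48 genes, namely members past 2-fold with all probes on one side and the 3 highest and lowest at each age, the largest rise and fall of each family with age, and well-known regulators. Further genes were chosen after their values were seen. One gene of the retina list is not reported here.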

Additional observations from a re-analysis of the deposited data

Results flagged for a closer look

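In 5 members the copper differences ran in opposite directions at the 2 ages and were past 1.5-fold at both. The like count over all genes was not made. The difference between the ages was not tested, and each age has 1 array per group. As log2 values, labelled copper minus labelled control, lhx1a differed by 0.99 at 24 hpf and -1.44 at 96 hpf, and its other probe by 1.57 and, at its bound, -0.94. The motor neuron factor lhx4 differed by 1.13 at 24 hpf and -0.84 at 96 hpf, with its other probe at 1.52 and -0.85. In the 24 hpf array labelled control, signals before normalization were 99.7 for lhx1a, 29.6 for lhx4, 15.1 for irx6a and 18.8 for sox32. These lay below that array's median of 162.2, while the signal of msx3, 1501, lay above it. Over all genes at 24 hpf, the copper difference of the dimmest probe exceeded that of the brightest by a median of 0.51. The gene msx3 differed by 0.98 at 24 hpf and -0.85 at 96 hpf, with its other probe at 1.01 and -0.76. The gene irx6a had a bound of 1.00 at 24 hpf, where it was well above background only in the array labelled copper, and -0.91 at 96 hpf, on 1 probe. The endoderm gene sox32 went the other way, with -0.79 at 24 hpf and a bound of 0.60 at 96 hpf, on 1 probe with low signal.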

How the results depend on the processing

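With the treatment as file names give it, the median copper difference of the members was 0.38 at 24 hpf and 0.34 at 96 hpf, with 27 and 7 members below 0, and at 96 hpf 3 members were at least 2-fold higher and 0 lower. Under the other alternatives the 96 hpf median lay between -0.28 and -0.40. Members below 0 at 96 hpf ranged from 97 of 103 (detection on all 4 arrays) to 108 of 119 (no filter). The 24 hpf median was -0.15 with the mean of detected probes. Counts past 2-fold depended on the settings, and the share of all genes past 2-fold was counted for the main run only. At 24 hpf, members higher numbered 4 under 75th-percentile scaling, 0 under normexp and 6 with the mean of probes, and members lower 1 under normexp and 1 with the mean of probes. At 96 hpf 1 was higher without a filter, and members lower numbered 1 under normexp and 6 with the mean of probes. At 4-fold there were 0 higher and 0 lower at either age. For age, leaving out each array in turn gave 14 to 20 members that rose and 19 to 32 that fell. The lowest fall count, 19, came without the 96 hpf array labelled copper, and without a filter it was also 19. Each run without an array leaves 1 array at one age, so its calls rest on no spread within that age. The share of all genes that passed changed between runs as well, so these counts alone do not set the members apart from other genes. Without a filter, 7.02% of all genes fell, against 15.1% in the main run. The age median was -0.60 with the mean of probes. Copper over both ages gave 0 calls under all 7 alternatives run. One of these, the file names' treatment, only turns the sign and could not change a call. Of 48 named genes, 45 kept their side of the age threshold under 75th-percentile scaling (not gsx1, nkx2.5 or pax7b), 47 under normexp (pax9 passed, 1.14) and 46 with the mean of probes (pax6b passed, -1.31, and pax7b did not). The cause of these changes was not tested. No paired analysis was possible because each group has 1 array and groups share only the number 1. Folds of probes near background are the least certain.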

Other observations

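Members that neighbour each other in assembly GRCz12tu are given here by their log2 differences with age, with no test of the pairs. Side by side, irx4a and irx2a rose by 3.08 and 1.60, and nkx2.2b and nkx2.4b fell by 2.49 and 1.67. The neighbours nkx3.3 and nkx2.3 differed by 3.04 (passed) and -0.63 (did not pass). The gene nkx2.9 (-5.40) lies between pax9 (1.04, did not pass) and nkx2.1 (-0.42, did not pass). Next to each other, six9 (dim in the 24 hpf array labelled control) rose by 2.25 while six5 (-0.38) did not pass. The distal-less neighbours dlx3b and dlx4b (-0.57 and -0.84), dlx1a and dlx2a (0.091 and -0.63) and dlx6a and dlx5a (0.63 and -0.42) did not pass.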
